A study of Mus musculus with 12 samples.

Results

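The genes described are 9 mouse genes of enamel formation: the enamel matrix genes Amelx, Ambn and Enam, the ameloblast secretory genes Amtn and Odam, the enamel protease genes Mmp20 and Klk4, the dentin matrix gene Dspp and the maturation-stage gene Wdr72. They were chosen by name, and every non-control probe whose accession mapped to one of the symbols was taken. Of 41174 non-control probes 9 qualified, 2 for Amelx and 1 for each of 7 other genes, and no probe mapped to Amtn, which was not analysed here. Of 31064 genes tested, 8 were among the 9. RNA came from single colonies grown in culture from the epithelium of the labial cervical loop, the stem cell niche of the mouse incisor. The groups were wild-type, Bmi1 null and double null colonies, the last lacking both Bmi1 and Ink4a/Arf, with 4 biological replicates each. All were of mixed genetic background, and the labels give no age, Cre driver or treatment. The wild-type colonies are numbered 1, 3, 4 and 5 in the labels, and the colonies of either mutant 1 to 4. Each was hybridised in 1 colour to its own Agilent whole mouse genome array.

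Enamel is laid down by ameloblasts, the epithelial cells that line the growing tooth. Secretory ameloblasts release amelogenin, ameloblastin and enamelin together with the protease MMP20. In the maturation stage the cells secrete KLK4, amelotin and ODAM, remove the cleaved matrix and move ions into the hardening enamel. Bmi1 is a Polycomb subunit that keeps the Ink4a/Arf locus (Cdkn2a) silent, and the comparison of the 3 genotypes asks which changes in Bmi1 null colonies are still present when that locus is lost too.

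Wild-type arrays stood apart from all mutant arrays: their log2 signals had an interquartile range of 2.56 ± 0.06 (SD, n = 4) against 4.52 ± 0.18 for the Bmi1 null and 4.66 ± 0.42 for the double null arrays. Between 90.7% and 96.9% of their probes were well above background, the scanner software's own test, against 77.2 to 84.4% and 74.8 to 87.6% in the mutants. Probes for olfactory receptor genes, which serve the sense of smell, reached that mark at 96.4 to 99.5% of 926 probes in wild type, at 51.8 to 70.4% in Bmi1 null and at 49.0 to 71.7% in double null. After each array was scaled to its 75th percentile, the median change of all genes against wild type was -1.24 on the log2 scale for Bmi1 null and -1.39 for double null colonies, and changes are given here also relative to that median. When arrays were scaled to their own median instead, the same medians were -0.30 and -0.39. The targeted gene Bmi1 was measured on all 12 arrays and fell by 2.09 and 2.25 (log2, relative to the median -0.85 and -0.86), and the labels do not place its probe inside or outside the deleted part. Cdkn2a was detected above background in all 4 Bmi1 null colonies and in no colony of either other genotype. Epithelial markers were present throughout, with 10 of 10 well above background on all arrays of each genotype.

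Calls against wild type were made for most genes on the array. With limma, at an adjusted p under 0.05, 25.2% of all genes were higher and 58.3% lower in Bmi1 null than in wild type, and 25.7% were higher and 59.7% lower in double null. Between double null and Bmi1 null, 2.81% were higher and 4.62% lower. With each array scaled to its median the shares against wild type became 36.8% higher and 41.8% lower in Bmi1 null, and 36.5% and 43.2% in double null, so that called genes were split more evenly: 46.9% of the calls in Bmi1 null were then higher, against 30.2% under the 75th percentile. Of the enamel genes 6 of 8 were called lower in Bmi1 null and 6 of 8 in double null, 0 were called higher in either, and 0 of 8 differed between the mutants. The 4 genes Ambn, Enam, Mmp20 and Dspp passed the filter on weak probes only through their wild-type arrays, so they had to differ, and their part in these counts adds no support. Of the 4 genes measured on all 12 arrays, Amelx and Klk4 were called lower in both mutants, and Odam and Wdr72 were not called. The double null and Bmi1 null comparisons share the same 4 wild-type arrays and are not independent of each other. In a colony, fewer cells of a type and less RNA per cell cannot be told apart.

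**Figure D1:**
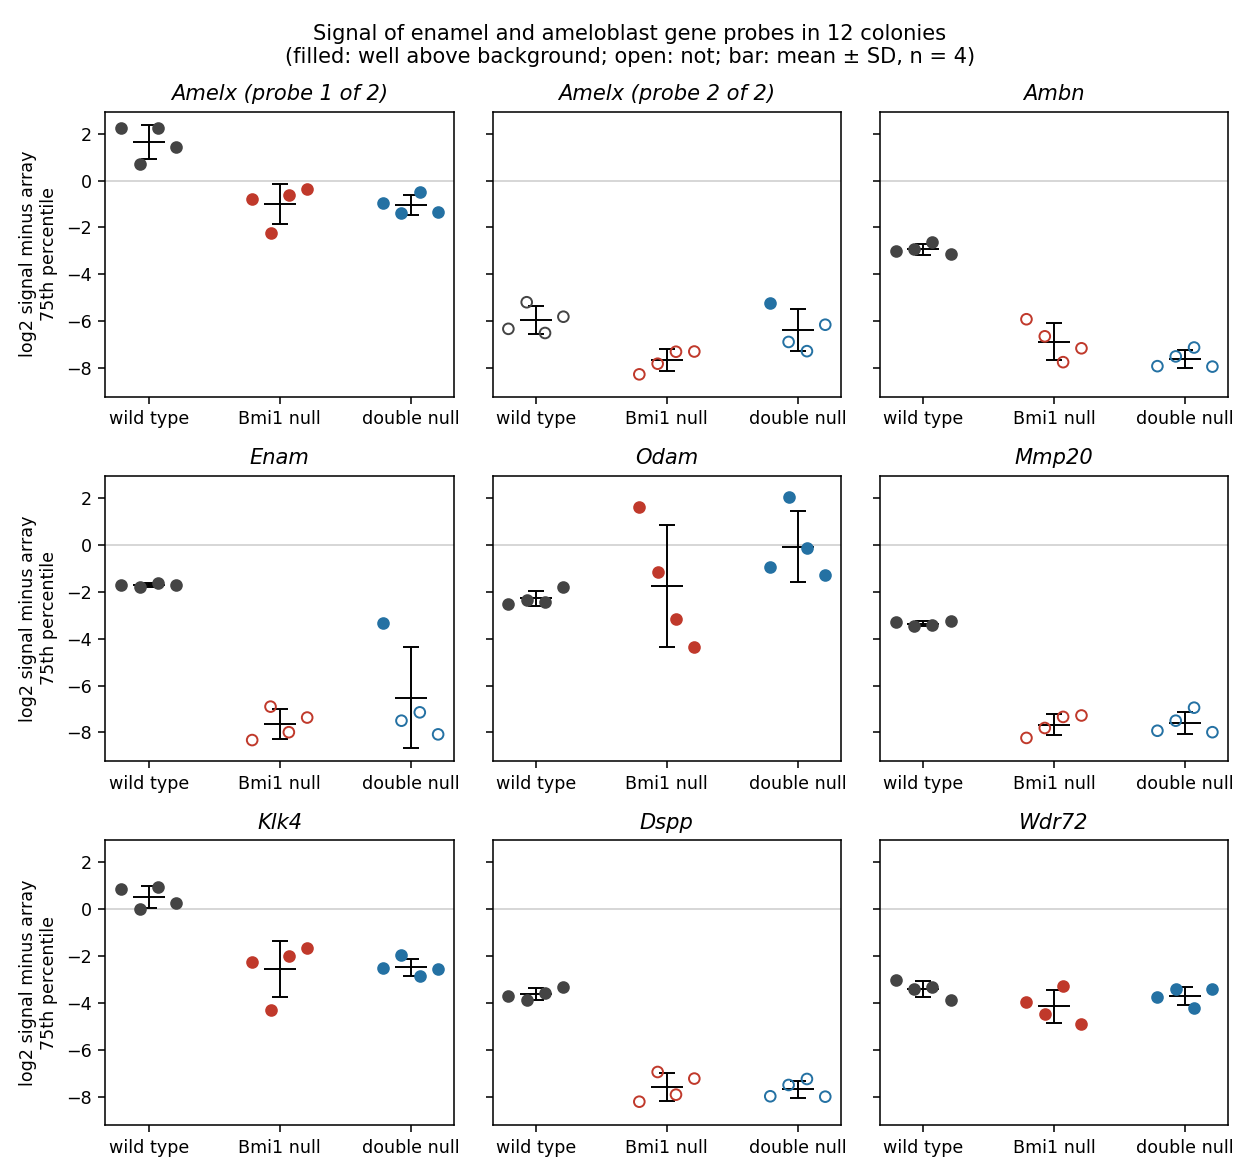
Level of each of the 9 probes on the 12 arrays, as log2 processed signal minus the array's 75th percentile, by genotype. Filled points were well above background and open points were not, and bars give mean and SD of 4 colonies. Amelx probe 1 and Klk4 are lower in all 8 mutant colonies yet still measured, Ambn, Mmp20 and Dspp are measured in wild type only, Enam is measured in wild type and in 1 double null colony, and Odam is spread widely in both mutants.

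Amelx encodes amelogenin, the most abundant protein of the forming enamel, and of the enamel genes with a change it was one of the 2 still measured in every mutant colony. Its brighter probe gave processed signals of 1193, 487, 1302 and 1359.7 in wild-type colonies 1, 3, 4 and 5. In Bmi1 null colonies 1 to 4 the signals were 527, 150.0, 404 and 309, and in double null colonies 1 to 4 they were 316, 243, 225 and 222. Before scaling, Bmi1 null colony 1 exceeded wild-type colony 3. After scaling, every mutant colony was below every wild-type colony, as was true of 56.2% and 53.7% of all genes in the lower direction in Bmi1 null and double null. The scaled level was 1.66 ± 0.73 in wild type, -1.01 ± 0.85 in Bmi1 null colonies and -1.04 ± 0.43 in double null colonies (log2, mean ± SD, n = 4). Amelx was thus 6.33-fold lower in Bmi1 null (log2 change -2.66 ± 0.44 SE, limma adjusted p = 0.000105) and 6.46-fold lower in double null (-2.69 ± 0.44, limma adjusted p = 8.81e-05). Set against the all-gene median the changes were -1.42 and -1.30, and 23.8% of all genes had a lower change in Bmi1 null. After median scaling the changes were -1.73 and -1.69, still called, and in the authors' deposited table they were -2.73 and -2.79. Within slide 1, which held 2 wild-type and 2 Bmi1 null arrays, the Bmi1 null difference was -2.81, and within slide 2 it was -2.97. Slide 2 also held 1 double null array, and there the double null difference was only -1.18, beside -1.26 for the median of all genes, since that slide paired the wild-type colony with the lowest Amelx level and the double null colony with the highest. With slide as a block the double null change was -2.07 (limma adjusted p = 0.00839). The other Amelx probe disagreed in detection: it was well above background on 1 of 12 arrays, that of double null colony 1 with a signal of 16.4, and gives no level for the other 11.

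Ambn encodes ameloblastin, a matrix protein through which ameloblasts adhere to the forming enamel. Its signals were 31.4, 38.8, 45.4 and 57.0 in the wild-type colonies. They were 15.1, 7.2, 2.9 and 2.8 in Bmi1 null and 2.5, 3.5, 2.2 and 2.3 in double null colonies, none of them well above background. The mutant signals therefore set only a bound, computed from the mean wild-type level against the lowest level counted as well above background on each mutant array, or the probe's own level where that was higher. This bound, and those of other genes below, holds only for the processed signal under 75th percentile scaling. It includes the shift of all genes and is not a bound under other treatments of the signal. Because Ambn, Enam, Mmp20 and Dspp passed the filter only through wild type, the p-values of their fits add no support for a difference. Ambn was at least 6.82-fold lower in Bmi1 null and at least 6.34-fold in the double null. Its fitted changes were -3.94 ± 0.34 (limma adjusted p = 5.66e-07) and -4.69 ± 0.34 (limma adjusted p = 1.30e-07). In the authors' deposited table the changes were -0.33 and -0.43, much smaller but still called. With normexp background correction they were -0.21 (limma adjusted p = 0.0706), not called, and -0.27 (limma adjusted p = 0.0239).

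Enam encodes enamelin, the largest of the enamel matrix proteins and a gene that neighbours Ambn. Its signals were 78.2, 86.1, 89.0 and 151.9 in wild type, and after scaling these 4 colonies lay closer together (SD 0.07) than all but 3.0% of the genes well above background on every wild-type array. In Bmi1 null the signals were 2.8, 6.0, 2.5 and 2.4, none well above background. In double null they were 59.2, 3.5, 2.2 and 2.1, so that colony 1 alone was measured while the other 3 lay at background. On that array the Enam spot read 73.5 before background subtraction, against 30 to 48 on the other 7 mutant arrays and 116 to 196 in wild type, and it was not marked as an outlier. Double null colony 1 was also the array with most outlier spots, 1336 against 55 to 132 on the others, and whether this bears on its Enam signal was not tested. Enam was at least 16.4-fold lower in Bmi1 null (fitted -5.93 ± 0.79, limma adjusted p = 1.72e-05), and 1.04% of all genes had a lower change. In double null the fitted change was -4.81 ± 0.79 (limma adjusted p = 8.95e-05), and without colony 1 it was -5.86. The authors' deposited table gave -1.40 in both.

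The sequences just upstream of 4 of these genes are shown because Ambn and Enam, which stand next to each other, were measured in wild type only or nearly so, Amelx fell but was still measured, and Odam, in the same gene cluster as Ambn and Enam, was not called lower. RefSeq promoter sequences of assembly GRCm38.p6 were matched for 7 of the 9 genes, and the 250 bases before each annotated start are printed 5′ to 3′ on the gene's strand. Capitals mark matches, on either strand, to the core promoter motif TATAAA, the motif CCAAT bound by NF-Y, the Runx core TGTGGT, the Msx and Dlx homeodomain core TAATTG and the Pitx homeodomain core TAATCC. The Amelx sequence is chrX:169187210-169187459 on the minus strand, and the others lie on the plus strand at chr5:88455741-88455990 (Ambn), chr5:88487725-88487974 (Enam) and chr5:87884760-87885009 (Odam).
Amelx: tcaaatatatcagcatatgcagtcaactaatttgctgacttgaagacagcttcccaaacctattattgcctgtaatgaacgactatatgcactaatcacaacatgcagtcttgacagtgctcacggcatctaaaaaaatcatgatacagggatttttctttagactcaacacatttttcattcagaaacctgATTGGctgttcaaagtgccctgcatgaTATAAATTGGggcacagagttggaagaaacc
Ambn: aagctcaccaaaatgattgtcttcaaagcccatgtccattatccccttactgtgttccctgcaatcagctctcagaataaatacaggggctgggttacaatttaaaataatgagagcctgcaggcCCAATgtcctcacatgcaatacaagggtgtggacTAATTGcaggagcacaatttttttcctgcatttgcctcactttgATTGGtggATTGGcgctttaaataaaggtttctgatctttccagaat
Enam: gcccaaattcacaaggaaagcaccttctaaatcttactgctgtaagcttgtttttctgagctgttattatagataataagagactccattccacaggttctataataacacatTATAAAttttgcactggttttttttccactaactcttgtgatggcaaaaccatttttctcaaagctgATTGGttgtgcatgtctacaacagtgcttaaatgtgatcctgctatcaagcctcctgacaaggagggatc
Odam: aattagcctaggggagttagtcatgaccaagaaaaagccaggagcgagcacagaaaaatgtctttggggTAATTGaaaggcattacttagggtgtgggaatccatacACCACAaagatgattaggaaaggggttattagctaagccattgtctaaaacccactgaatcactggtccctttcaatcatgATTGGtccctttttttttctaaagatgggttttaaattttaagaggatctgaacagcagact
A TATAAA match began 31 bases before the Amelx start, where it overlapped a reverse CCAAT match that began 26 bases before it, and 137 bases before the Enam start. TATAAA occurred in 3 of the 7 promoters (Amelx, Enam and Mmp20) and in 12.4% of 32851 promoters of the same length. CCAAT occurred in 5 of 7 (Amelx, Ambn, Enam, Amtn and Odam) and in 33.9% of all. TAATTG occurred in Ambn and Odam and in 7.17% of all promoters, TGTGGT in Odam and in 14.1% of all, and TAATCC in 0 of 7 and in 6.25% of all. Of the 4 sequences printed, all held CCAAT, and TAATTG stood in that of Ambn, called lower, and that of Odam, not called. These are matches of letters and not measured binding sites.

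Mmp20 encodes the metalloprotease that cleaves the enamel matrix during secretion. Its signals were 26.0, 27.1, 25.5 and 53.1 in wild type. They were 3.0, 3.2, 3.9 and 2.5 in Bmi1 null and 2.5, 3.5, 2.5 and 2.2 in double null, none well above background. Mmp20 was at least 5.24-fold lower in Bmi1 null (fitted -4.31 ± 0.27, limma adjusted p = 5.24e-08) and at least 4.71-fold in the double null (fitted -4.24 ± 0.27, limma adjusted p = 5.02e-08). In the authors' deposited table the changes were -0.30 and -0.38, both called. With normexp they were -0.17 (limma adjusted p = 0.118), not called, and -0.29 (limma adjusted p = 0.0113).

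Klk4 encodes the serine protease that degrades the residual matrix in the maturation stage. Signals were 466, 299.7, 533 and 595 in wild type. They were 189, 36.7, 157 and 127 in Bmi1 null and 105, 163, 42.7 and 96.8 in double null, all well above background. All 8 mutant colonies were below all 4 wild-type colonies, with Bmi1 null colony 2 the lowest. The same lack of overlap was seen for 56.2% of all genes in Bmi1 null and 53.7% in double null. The level was 0.52 ± 0.46 in wild type, -2.55 ± 1.19 in Bmi1 null colonies and -2.48 ± 0.37 in double null colonies (log2, mean ± SD, n = 4). Klk4 was 8.38-fold lower in Bmi1 null (-3.07 ± 0.48 SE, limma adjusted p = 6.86e-05) and 7.99-fold lower in double null (-3.0 ± 0.48, limma adjusted p = 7.55e-05), or -1.83 and -1.60 relative to the median of all genes. After median scaling the changes were -2.13 and -2.0, and in the authors' deposited table -2.17 and -2.13, all called. Within slides the Bmi1 null difference was -2.87 and -4.29, and the double null difference -2.88. In Bmi1 null 18.0% of all genes had a lower change than Klk4.

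Odam encodes a secreted protein of maturation ameloblasts and of the junctional epithelium that seals the gum to the tooth, and among the 4 genes measured on all 12 arrays it varied most within each mutant. Its signals were 44.0, 58.7, 50.3 and 143 in wild type. In Bmi1 null they were 2806, 319, 69.5 and 19.5, a range of 144-fold. In double null they were 314, 2670.3, 284 and 234, a range of 11.4-fold, and all 12 were well above background. Bmi1 null colonies 1 and 2 were above and colonies 3 and 4 below every wild-type colony on the scaled level, while every double null colony was above every wild-type colony, as was true of 24.6% of all genes. After median scaling Bmi1 null colony 3 (-1.03) lay within the wild-type range of -1.31 to -0.55. In the authors' deposited table Bmi1 null colonies 3 and 4 (6.56 and 6.15) both lay within the wild-type range of 5.97 to 6.66. With normexp both lay within the wild-type range too. The SD of the Odam level was 0.33 in wild type, 2.61 in Bmi1 null colonies and 1.5 in double null colonies, and both mutant values were larger than for 99.98% and 99.4% of the genes well above background on all 4 arrays of the genotype.

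Against wild type Odam did not pass the test in either mutant. The change was 0.52 ± 1.06 in Bmi1 null (95% interval -1.77 to 2.81, limma adjusted p = 0.651) and 2.21 ± 1.06 in double null (4.63-fold, interval -0.078 to 4.50, limma adjusted p = 0.0660). Relative to the median of all genes these were 1.76 and 3.61. The double null call depended on the scaling: it was 3.21 after median scaling (limma adjusted p = 0.0116), 3.45 after quantile scaling, 2.15 with normexp and 2.72 in the authors' deposited table (limma adjusted p = 0.00812). It also passed with Bmi1 null colony 1 (limma adjusted p = 0.0151) or colony 4 (limma adjusted p = 0.0384) left out of the shared estimate of the spread, with the change itself the same. Without double null colony 2, the highest of that genotype, the change was 1.5 (limma adjusted p = 0.197). In Bmi1 null the sign rested on colony 1, without which the change was -0.61. Within slides the Bmi1 null differences were 1.14 and 1.18, and the double null difference was 2.21.

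Dspp encodes the precursor of the main non-collagen proteins of dentin and is made by odontoblasts and, for a short time, by young ameloblasts. Its signals were 19.8, 20.1, 22.8 and 50.5 in wild type, all well above background. They were 3.1, 5.8, 2.6 and 2.6 in Bmi1 null and 2.4, 3.5, 2.1 and 2.2 in double null, none well above background. Dspp was at least 4.36-fold lower in Bmi1 null (fitted -3.96 ± 0.29, limma adjusted p = 1.64e-07) and at least 3.92-fold in the double null (fitted -4.06 ± 0.29, limma adjusted p = 1.18e-07). In the authors' deposited table the changes were -0.23 (limma adjusted p = 0.118) and -0.14 (limma adjusted p = 0.336), and neither was called. With normexp they were -0.19 (limma adjusted p = 0.116), not called, and -0.24 (limma adjusted p = 0.0472). Within slides the Bmi1 null differences of Ambn, Enam, Mmp20 and Dspp ran from -6.18 to -3.06, and the double null differences from -5.35 to -3.36.

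Wdr72 encodes a protein of vesicle trafficking that maturation ameloblasts need to take up the cleaved matrix. Its signals were 31.4, 28.3, 27.7 and 34 in wild type, 57.8, 32.3, 65.0 and 13.4 in Bmi1 null and 45.2, 60.2, 16.6 and 52.5 in double null. All were well above background and the genotypes overlapped on the scaled level. The change was -0.74 ± 0.33 in Bmi1 null (limma adjusted p = 0.0532) and -0.30 ± 0.33 in double null (limma adjusted p = 0.410), or 0.50 and 1.10 relative to the median of all genes. Its direction turned with the scaling: the values were 0.19 and 0.70 after median scaling, neither called, and 0.61 and 0.82 in the authors' deposited table, both called (limma adjusted p = 0.00517 and 0.000612). With slide as a block, under the 75th percentile, it was called lower, at -1.13 and -1.16 (limma adjusted p = 0.00577 and 0.0215). Within slides the differences in Bmi1 null were -1.26 and -1.07, beside all-gene medians of -1.43 and -0.93. The direction of the Wdr72 change was therefore not settled.

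**Figure D2:**
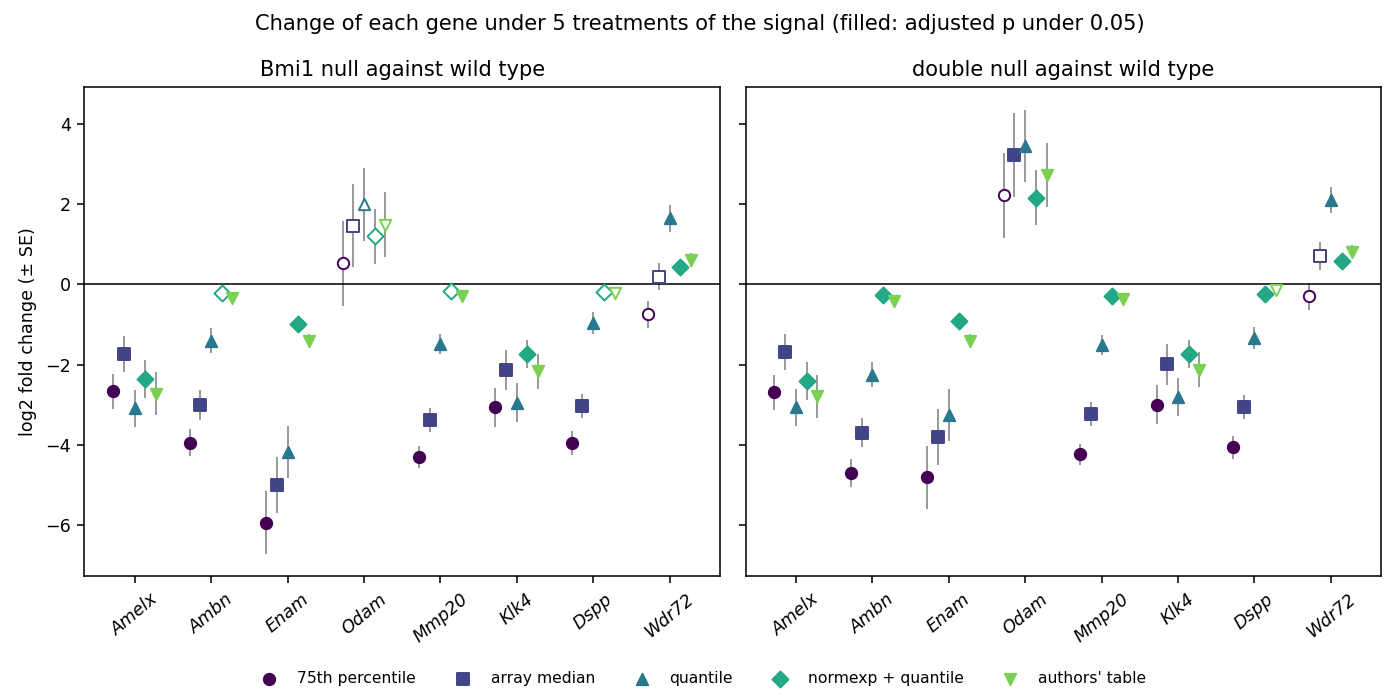
Log2 fold change of the 8 genes tested (± SE) in each mutant against wild type under 5 treatments of the signal, filled where the limma adjusted p was under 0.05. Amelx and Klk4 are below 0 and filled under every treatment shown, the changes of Ambn, Mmp20 and Dspp shrink to between -0.14 and -0.43 under normexp and in the authors' table, and Wdr72 lies on either side of 0.

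Between double null and Bmi1 null colonies 0 of 8 enamel genes were called in the limma fit, and 1 of 8, Ambn, which was below background in both, had an unadjusted p under 0.05. The difference was -0.03 for Amelx (95% interval -0.98 to 0.92, limma adjusted p = 0.982) and 0.07 for Klk4 (-0.97 to 1.11, limma adjusted p = 0.959). Differences within those bounds were not detectable with 4 colonies a group. For Odam the difference was 1.69 (-0.60 to 3.98, limma adjusted p = 0.394) and for Wdr72 0.45 (-0.28 to 1.17, limma adjusted p = 0.493). Within slides 2 and 4 the Amelx difference was 1.79 and -0.51, and the Klk4 difference 1.42 and -0.54, with 1 or 2 arrays on each side. The Odam difference was 1.03 and 2.06 on those slides.

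The fall of the weakly measured genes had many counterparts across the array. Probes that every wild-type array, but no mutant array, held well above background were 3 of the 9 enamel probes (Ambn, Mmp20 and Dspp), 1511 of 41174 probes in all (3.67%) and 119 of 926 olfactory receptor probes (12.9%). The 875 olfactory receptor genes tested had a median change of -3.54 in Bmi1 null, with 869 called lower, and of -3.72 in double null, with 874 called lower. In the authors' deposited table these medians were -1.61 and -1.64. Under 75th percentile scaling the changes of Ambn, Mmp20 and Dspp in Bmi1 null, from -3.94 to -4.31, lay near the olfactory receptor median. That of Enam (-5.93) lay further out, and those of Amelx (-2.66) and Klk4 (-3.07) were smaller than it. The order was another in the authors' deposited table. There Amelx (-2.73) and Klk4 (-2.17) fell further in Bmi1 null than the receptor median, and Enam (-1.40) lay near it. Ambn, Mmp20 and Dspp fell less (-0.33, -0.30 and -0.23). Whether the enamel genes' changes and the general loss of weak signals share a source was not tested.

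**Figure D3:**
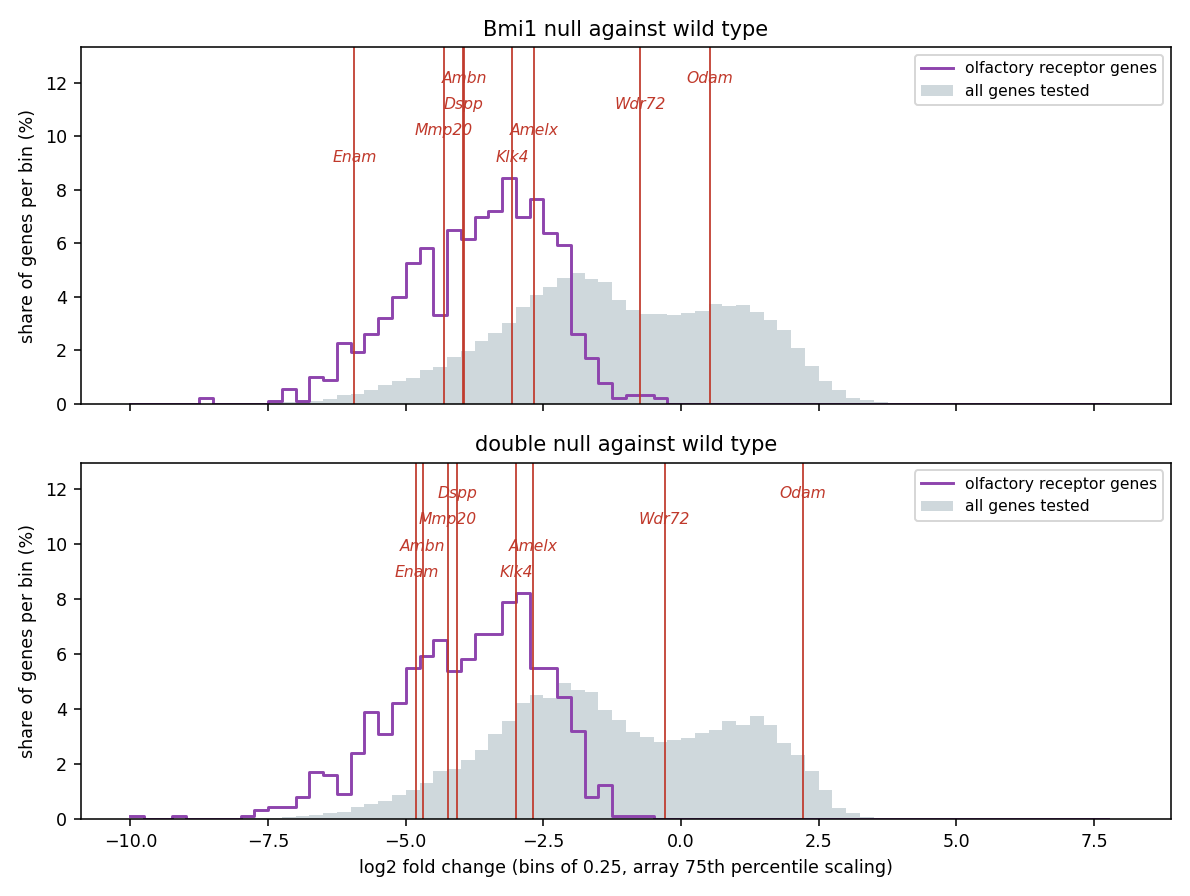
Distribution of log2 fold changes under 75th percentile scaling for all 31064 genes tested (grey) and for 875 olfactory receptor genes (purple outline), as a share of genes per bin, with the 8 enamel genes as vertical lines. Ambn, Dspp and Mmp20 lie within the bulk of the olfactory receptor genes in both mutants, while Odam and Wdr72 lie to its right.

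The profile of Enam over the 12 arrays was matched most closely by Vmn1r69 (a vomeronasal receptor), Ccdc110, Ranbp3l, Bhlhe23 and Cd163 (a macrophage receptor), with Pearson's r from 0.993 to 0.999. In all, 1639 of 16121 named genes had r over 0.9 with Enam. The profile of Mmp20 was matched most closely by Mcpt2 (a mast cell protease), Pde6a (a photoreceptor phosphodiesterase) and 3 olfactory receptor genes, with r from 0.997 to 0.998, and 3889 genes had r over 0.9. Only 3 genes exceeded 0.9 with Odam, a gene chosen for this after its values were seen: Edil3 (r 0.977), Vsnl1 (0.920) and Fdxacb1 (0.907). These coefficients describe 12 arrays that share the wild-type offset and are not tests.

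Of the 9 genes 4, Odam, Amtn, Ambn and Enam, lie in 1 run of 19 protein-coding genes in the RefSeq order of assembly GRCm38.p6, among milk casein genes and salivary protein genes. Of the 11 other genes tested in that run 9 were called lower in both mutants. Among these, Csn1s2a, Csn3 and Prol1 passed the filter on weak probes only through wild type, so their calls add no support. Prr27, the gene next to Odam, changed by -1.63 and -1.85 in the single and double mutant and was measured on all 12 arrays, while Odam was not called. Smr3a, a salivary protein gene, changed by -2.34 and -2.60. The casein gene Csn1s2a was well above background on 4 wild-type arrays, 1 Bmi1 null array and 0 double null arrays. The 2 called higher were the ribosome assembly gene Utp3 (1.21 and 1.77) and the RNA-binding gene Grsf1 (0.93 and 1.57), both near the end of the run. Around Dspp 5 of 6 other genes tested were lower in both, among them Ibsp, a bone sialoprotein, which was well above background in 4 wild-type colonies and in no mutant (at least 6.13-fold lower in Bmi1 null and 5.50-fold in double null). Ibsp too passed the filter only through wild type, so its call adds no support. These shares of neighbours stand beside 58.3% and 59.7% of all genes called lower.

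Other genes of enamel formation were followed through 4 lists. Of 17 regulators of ameloblast differentiation 10 were higher, 3 lower and 4 not called in Bmi1 null, and 8, 3 and 6 in double null, with list medians of 0.73 and 0.61 (1.97 and 2.01 relative to all genes). With median scaling 12 were higher in either mutant, and with the 75th percentile taken over probes detected on all arrays 5 were higher in Bmi1 null and 7 in double null. Of all genes 25.2% and 25.7% were higher, and 58.3% and 59.7% lower, under the main scaling. Median scaling called 36.8% and 36.5% of all genes higher, and the percentile over detected probes 20.5% and 21.3%. The fallen regulators with the largest changes were Lef1, a transcription factor of Wnt signalling (-3.38 ± 0.23 in Bmi1 null and -3.59 ± 0.24 in double null), and Gata3 (-3.27 ± 0.44 and -3.29 ± 0.44). Runx1 rose in Bmi1 null (2.11 ± 0.21) and Med1, a Mediator subunit that ameloblasts need, rose in double null (2.34 ± 0.33). These 4 were called after median scaling and in the authors' deposited table too.

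Of 14 tested genes of enamel secretion and cell adhesion 9 were higher and 2 lower in Bmi1 null, and 10 were higher and 3 lower in double null, beside the same shares of all genes. Quantile scaling gave 6 higher and 1 lower in Bmi1 null, and 7 and 3 in double null. It called 33.5% of all genes higher and 38.7% lower in Bmi1 null, and 33.6% and 39.3% in double null. The list medians were 1.07 and 1.40 (2.31 and 2.79 relative to all genes). Col17a1 and Itgb4, parts of the hemidesmosomes that anchor epithelial cells, rose in Bmi1 null by 3.16 ± 0.29 and 2.20 ± 0.27. Timp2, a metalloprotease inhibitor, rose by 2.34 ± 0.29 in Bmi1 null colonies and 1.79 ± 0.29 in double null colonies. Cldn19, a tight junction gene, and Relt fell in double null (-2.11 ± 0.29 and -1.92 ± 0.34). Beside these lists, the mean level of the 10 epithelial markers ran from 1.41 to 2.06 in wild-type, from 3.01 to 3.36 in Bmi1 null and from 3.31 to 3.47 in double null colonies, higher in every mutant colony. Its part in the list changes was not tested.

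Maturation ion transport genes went both ways: of 21 tested 6 were higher and 10 lower in Bmi1 null, and 5 and 9 in double null. Of all genes 25.2% were higher and 58.3% lower in Bmi1 null, and 25.7% and 59.7% in double null. The split turned with median scaling, which gave 9 higher and 8 lower in Bmi1 null and 9 and 5 in double null. The shares of all genes then moved too, to 36.8% higher and 41.8% lower in Bmi1 null, and 36.5% and 43.2% in double null. The list medians under the 75th percentile were -0.50 and -0.47 (0.74 and 0.93 relative to all genes). Slc24a4, the calcium exchanger of maturation ameloblasts, changed by -3.98 ± 0.35 and -3.53 ± 0.35. Cftr, a chloride channel, changed by -2.68 ± 0.22 in both, and Car6, a secreted carbonic anhydrase, by -3.73 ± 0.42 and -4.38 ± 0.45. In the authors' deposited table the changes of Slc24a4 were -3.25 and -2.98 and those of Cftr -3.33 and -3.35, all called.

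Of 8 tested dentin and bone matrix genes 6 were lower and 1 higher in each mutant, beside 58.3% and 59.7% of all genes lower. Ibsp, in this list too, passed the filter only through wild type, so its call adds no support. The counts fell with other scalings: in Bmi1 null 5 were lower with median scaling and 3 with quantile scaling, with normexp and in the authors' deposited table, and in double null 3, 3, 4 and 4 in the same order. The share of all genes called lower fell too, to 41.8%, 38.7%, 38.2% and 38.5% in Bmi1 null in that order. In double null it was 43.2%, 39.3%, 38.5% and 38.7%. With the filter on all 12 arrays 3 of 5 tested genes were lower in each mutant, beside 45.3% and 46.6% of all genes. The list medians were -1.70 and -1.28, or -0.46 and 0.11 relative to all genes. Bglap, an osteocalcin gene with near-identical copies, changed by -4.89 ± 0.33 and -4.53 ± 0.33, and by -4.92 and -4.57 in the authors' deposited table. Mepe fell by 2.97 ± 0.40 in double null, where 1 of 4 arrays measured it, and Sparc, a collagen-binding matrix protein, rose by 2.53 ± 0.33 in Bmi1 null. The summed scaled signal of the 8 genes was nevertheless higher in every Bmi1 null colony (27.0 to 40.02) than in wild type, where its range was 11.9 to 19.0, and the double null range of 17.1 to 30.3 overlapped that of wild type. Markers of other cell types were followed too: the summed scaled signal of 7 immune markers ran from 7.17 to 9.11 in wild-type, from 0.69 to 1.05 in Bmi1 null and from 0.65 to 1.35 in double null colonies. That of 12 mesenchymal markers was 12.1 to 14.7, 5.20 to 10.1 and 5.29 to 40.8, and that of 5 endothelial markers 1.62 to 2.02, 0.31 to 0.47 and 0.33 to 0.85. Relative to all genes, the immune list had medians of -2.07 and -2.12 and the endothelial list -1.19 and -0.89. The mesenchymal list had -0.46 and 0.20. Of its 12 markers 7 were lower and 1 higher in Bmi1 null, and 6 and 1 in double null, beside the shares of all genes given above. No marker of these lists was below background on every array of a genotype, and their part in the changes was not tested.

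Between the mutants few list genes differed. Of the regulators Dlx3 (measured on 1 of 4 double null arrays) and Msx2, homeobox genes of tooth formation, were lower in the double null (-2.96 ± 0.70, limma adjusted p = 0.0234, and -1.56 ± 0.32, limma adjusted p = 0.0131). Ctsc, a lysosomal protease, was higher (1.74 ± 0.24, limma adjusted p = 0.00180) and Col17a1 lower (-1.43 ± 0.29, limma adjusted p = 0.0110). Of the transport genes Slc26a7, an anion exchanger, was at least 3.22-fold higher (not well above background on any Bmi1 null array) and Tfrc, the transferrin receptor, was higher by 1.28 ± 0.32 (limma adjusted p = 0.0181 and 0.0300). Neither of these 2 passed in the authors' deposited table (limma adjusted p = 0.0630 and 0.0544). Of the dentin and bone genes 0 of 8 were called. With slide as a block Dlx3, Msx2, Col17a1, Slc26a7 and Tfrc were no longer called, and over all 4 lists 1 gene, of secretion and adhesion, was higher and 0 lower. Of all genes 2.81% were called higher and 4.62% lower in the main fit, and 0.30% and 0.57% with slide as a block.

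**Figure D4:**
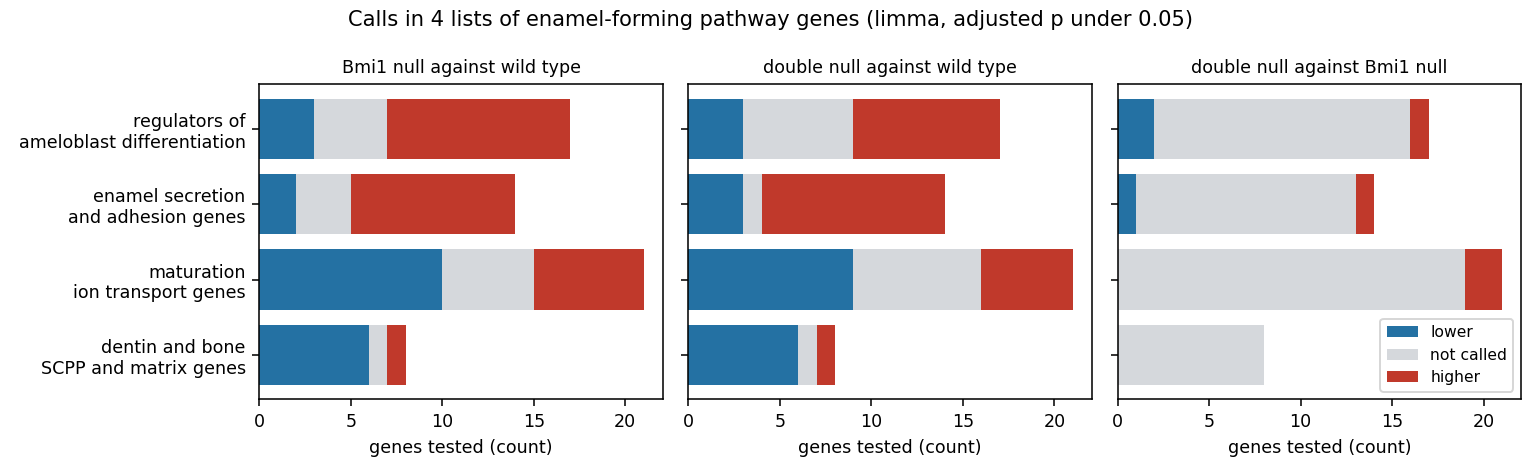
Number of genes called higher, lower or not called in 4 lists of enamel-forming pathway genes, for the 3 comparisons of genotypes (limma, adjusted p under 0.05, 75th percentile scaling). Under that scaling, in both mutants most adhesion genes are higher than in wild type, more regulators are higher than lower and most dentin and bone genes are lower, and between the mutants most bars are grey.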

How the data were processed

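Total RNA of 12 colonies was amplified, labelled with Cy3 and hybridised to 1-colour arrays, per the labels' protocols. The scanner files, which the authors made in Feature Extraction 10.7.3.1 (protocol GE1_107_Sep09, build mm9 per the file headers), hold a background-subtracted processed signal for each spot as a linear intensity. A second deposited table holds the authors' log2 values (column medians 7.21 to 7.24, correlation with the log2 spot median 0.992 to 1.00), with a normalization not given in the sources used here.

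Each array's 75th percentile was taken over all 43379 non-control spots, those marked as outliers included. The log2 processed signal minus that percentile was then averaged per probe for 41174 non-control probes, leaving out spots marked as outliers. Saturated spots numbered 0. Probes well above background on at least 3 of 4 arrays of 1 genotype were kept, 39338 in all, and the brightest probe stood for its gene. Accessions were named through RefSeq (GRCm38.p6): 24844 probes had 1 symbol, 0 several and 16330 none. All 12 arrays entered 1 limma fit (limma 3.58.1, R 4.3.3, 9 residual degrees of freedom), with Benjamini-Hochberg adjustment over 31064 genes. The fit was tested on simulated data. Precision is limited by the number of arrays.

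The 5 slides served as a block in an alternative. Others were median and quantile scaling, a 75th percentile over probes detected on all arrays, normexp correction with offset 50 followed by quantile scaling (on spot medians, since the mean signal column was not in the files used), the authors' table, no filter or a filter on all 12 arrays, the mean of a gene's probes, a replicate block and leaving out each array.

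Beside the 9 genes, Bmi1 and Cdkn2a, the text names up to 3 called genes of each list and comparison with the largest change, the 5 genes closest in profile to Enam and Mmp20, and chromosomal neighbours. Genes and lists were chosen with earlier results of these data known. For 1 list gene that the rule names, the result is not reported here.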

Additional observations from a re-analysis of the deposited data

How the results depend on the processing

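Amelx and Klk4 kept their direction and their call against wild type under every alternative run, with changes from -3.09 to -1.73 and from -3.39 to -1.74 in Bmi1 null. Of the changes under alternatives other than leaving out an array, 197 kept direction and side of the threshold, 17 turned, 9 gained and 5 lost the call. With an array left out 271 kept both, 12 turned and 5 gained the call. The Wdr72 change in Bmi1 null turned from -0.74 to 0.19 with median scaling, 1.64 with quantile scaling, 0.43 with normexp and 0.61 in the authors' table, and in double null from -0.30 to 0.70, 2.10, 0.57 and 0.82 in the same order. It was called lower in Bmi1 null with the 75th percentile over probes detected on all arrays (-1.07), with slide as a block (-1.13), with the filter on all 12 arrays (-0.74, limma adjusted p = 0.0417) and without wild type 5, Bmi1 null 3 or double null 3. Between the mutants, where nothing was called, the Amelx difference was 0.039 with median scaling, 0.0200 with quantile scaling and 0.55 with slide as a block, and that of Wdr72 was -0.0255 with slide as a block. There Mmp20 was -0.0155 with quantile scaling, -0.13 with normexp and -0.079 in the authors' table, which gave -0.0021 for Enam and 0.089 for Dspp. With an array left out, differences between the mutants ranged from -0.45 to 0.19 for Amelx, -0.14 to 0.21 for Mmp20, -0.51 to 0.37 for Klk4 and -0.32 to 0.10 for Dspp, and the Odam change in Bmi1 null from -0.61 to 1.38. Against a count of 0, the enamel genes called higher in double null were 1 with median scaling, 2 with quantile scaling, 2 with normexp, 2 in the authors' table, 1 with a filter on all 12 arrays and 0 to 1 with an array left out. In Bmi1 null they were 1 with quantile scaling, 1 with normexp and 1 in the authors' table. Against 6 called lower, normexp gave 3 in Bmi1 null, and the filter on all 12 arrays, which removes the 4 genes measured in wild type alone or nearly so, gave 3 in Bmi1 null and 2 in double null. Genes called higher and lower between the mutants numbered 872 and 1436, and 94 and 176 with slide as a block. The cause of these changes was not tested.

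Replicate numbers gave no clear sign of pairing the colonies, though this check cannot exclude it. Over 10 same-numbered pairs the correlation of deviations ran from -0.14 to 0.22, with 3 over 0.1. With a replicate block the Amelx change was -2.46 in Bmi1 null and -2.49 in double null, that of Odam 0.23 and 1.91, and no call of an enamel gene changed, while the calls between the mutants over all genes became 512 and 836. Signals not well above background limit Ambn, Mmp20, Dspp and Enam in the mutants to bounds.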
